A study of Rattus norvegicus with 34 samples.

Results

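Testis RNA of adult rats fed 1 of 3 triazole fungicides at the high dose was set against testis RNA of rats on a diet without a fungicide, to find genes that all 3 compounds shifted in the same direction. The high-dose arrays were all those with values in the groups M2000 (myclobutanil, 2000 ppm in the diet, 5 arrays), P2500 (propiconazole, 2500 ppm, 5 arrays) and T1800 (triadimefon, 1800 ppm, 4 arrays), 14 of the 31 arrays with values. The comparison group was Control (0 ppm, 6 arrays, replicates 02 to 07). The animals were male Wistar Han rats exposed from gestation day 6 and sampled on postnatal day 92, and 1 array stands for 1 animal. The litters are not given in the sources used here, so p-values measure the spread between animals that may share a litter. The 500 ppm groups of the same compounds (M500, P500 and T500, 11 arrays) entered only the estimate of the spread. The doses differ, so the 3 compounds are set side by side and not compared with each other, and their 3 comparisons share the same 6 control arrays.

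Triazole fungicides block the sterol demethylase Cyp51 of fungi, and they can also bind mammalian cytochrome P450 enzymes. In the testis, Leydig cells take cholesterol through side-chain cleavage by Cyp11a1 and the 17-hydroxylase and lyase steps of Cyp17a1 to testosterone. Liver cells answer many triazoles with higher levels of drug-metabolizing enzymes, while most RNA of the adult testis comes from meiotic and later germ cells. All 3 compounds hold a triazole ring, which binds the haem iron of these enzymes, on different scaffolds: triadimefon is a ketone, propiconazole has a dioxolane ring and myclobutanil a nitrile group.

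Values are the deposited scores after quantile normalization. They follow a logarithm of unknown base, so all differences are in score units and none is a fold. The labelled tissue was borne out by the germ cell marker Smcp, a sperm mitochondrial protein gene, at 4.18 ± 0.21 (SD, n = 6) in control and above the spiked-in control transcript bioB on all 31 arrays. P2500 replicates 02, 03 and 04 carried liver transcripts: the median score of 20 hepatocyte markers was 1.15, 1.15 and 1.16 there and at most 0.0456 on every other control or high-dose array. Albumin (Alb), the main liver plasma protein gene, read 4.15, 3.89 and 3.91 on these 3 arrays and between -0.124 and 2.29 on the other control and high-dose arrays. The counts and the leading genes are therefore given with all 14 high-dose arrays and with the 11 that are left without these 3, where P2500 has 2 arrays. The labels' protocol describes both organs of the study.

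The arrays also differed in the actin gap, which is the difference between the 3' and the 5' probe set for beta-actin and grows as RNA degrades. The gap averaged 0.964 over the 14 high-dose arrays and 1.12 over the 6 control arrays, a difference of -0.158 (exact two-sided permutation test, p = 0.29). It was 1.67 and 1.63 on Control replicates 02 and 06, and 1.47 on both M2000 replicate 05 and P2500 replicate 05. No other control or high-dose array passed 1.4. Of the 6 control arrays 2 thus stand apart, and the difference without the 4 arrays of large gap is given beside many of the genes that it moved. Control replicates 05 to 07 and T1800 replicates 03 to 05 have higher animal numbers than all other arrays. They are called the later series here and the rest the earlier series, a split that rests on these numbers alone. Values within the earlier series are given beside the leading genes. Within that series control has 3 arrays and T1800 only replicate 02, which is taken to vary like the other groups, and a pooled value there rests on that array for its T1800 share.

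**Figure D1:**
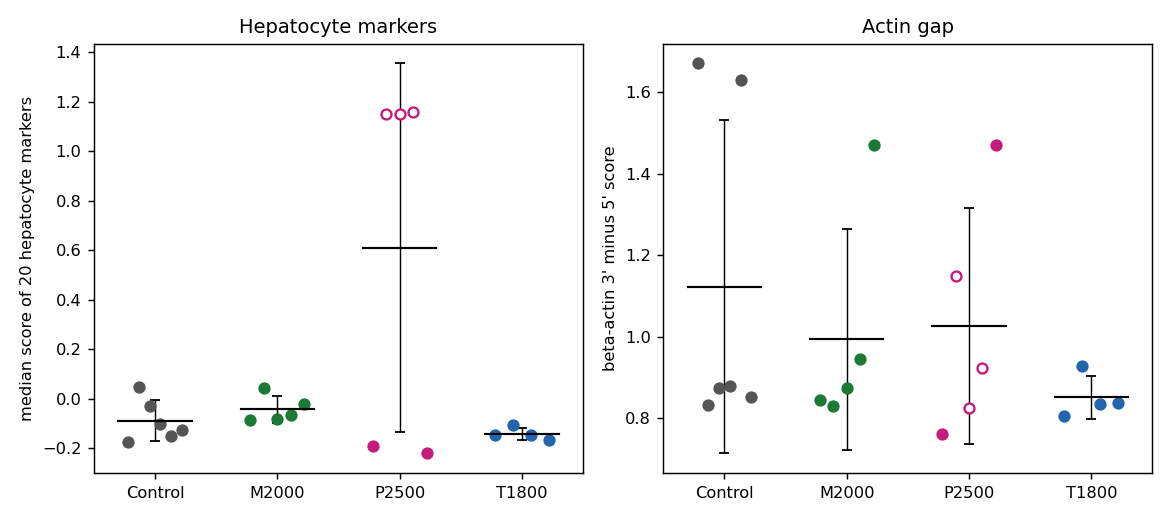
Median score of 20 hepatocyte markers (left) and actin gap in score units (right) for each array of the 4 groups. Points are arrays, bars the group mean and SD, and open points are P2500 replicates 02 to 04. These 3 arrays alone stand near 1.15 on the left, and 4 arrays lie above 1.4 on the right.

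No gene passed the threshold for a shift by the pooled high doses. In limma's moderated test of the pooled contrast (the 3 group means averaged, less the control mean), 0 of 31042 probe sets passed an adjusted p of 0.05 (0%), and the smallest adjusted p was 0.35. At an unadjusted p under 0.05, 1105 probe sets stood out (3.56%), 619 higher (1.99%) and 486 lower (1.57%). That threshold passes 1552 of these probe sets on average where nothing differs. With the arrays of actin gap above 1.4 left out, 1592 probe sets stood out, and 1861 with the gap as covariate. The count thus moved with the handling of the actin gap. Without the liver-bearing arrays, 0 probe sets passed, the smallest adjusted p was 1 and 703 had an unadjusted p under 0.05 (2.26%). With the gap as covariate, the 703 became 1804. With arrays weighted by how closely they follow their group's mean, 294 probe sets passed with all arrays and 0 without the liver-bearing ones.

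By single compound, M2000 had 528 probe sets at an unadjusted p under 0.05 (1.7%) and 0 after adjustment. P2500 had 1289 (4.15%) and 0 after adjustment, with a smallest adjusted p of 0.073. On the 2 P2500 arrays without liver transcripts it had 1187 at an unadjusted p under 0.05 and 0 after adjustment, with a smallest adjusted p of 1. With the arrays of large actin gap left out, P2500 had 308 after adjustment, from 4 arrays of which 3 carry liver transcripts. T1800 had 1814 (5.84%) and 2 after adjustment by limma. These 2 were S100b, a calcium-binding protein gene, and Arhgef28, a guanine nucleotide exchange factor gene, each with an adjusted p of 0.033. Both were higher in T1800 than in control, S100b by 0.252 (SE 0.042) and Arhgef28 by 0.443 (SE 0.074). The count was 2 with the liver-bearing arrays left out of the fit, and 0 on the scores as deposited and without the arrays of large gap. It was also 0 without any 1 of Control replicates 02, 04, 05 or 06, M2000 replicates 02, 03 or 04, or T1800 replicates 02 or 04, 4 without Control replicate 07 or T1800 replicate 03, and 5 without Control replicate 03. S100b differed from control by 0.0593 in M2000 and by 0.0889 in P2500. Arhgef28 differed by -0.0585 in M2000 and 0.127 in P2500, so its sign was not shared. The median standard error was 0.0264 for the pooled difference and 0.0327 to 0.0348 for single compounds.

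Asking for an unadjusted p under 0.05 in the same direction in every compound left 35 probe sets (0.113%), 20 higher and 15 lower. Of these, 25 have 1 gene symbol, 19 of them higher and 6 lower. The largest of a gene's 3 p-values, adjusted over all probe sets, was 1 for each of them, so none can be called. Their pooled differences ran from 0.0449 to 0.25 score units above control and from -0.04 to -0.171 below it. On 24 of the 35, no array of the 31 read above bioB, so most of these probe sets measured weak signals. This is not particular to the list, since only 6.99% to 19.7% of all probe sets read above bioB on an array. The share of all probe sets with no array above bioB was not counted. Only 3 genes had a p under 0.01 in every compound, Fgl2, Slc7a11 and Hyi, and all 3 were higher than control.

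On the 11 arrays, 14 probe sets met the same condition (0.0451%), 9 higher and 5 lower. Of these, 11 stood in both sets, which is 31.4% of the 35 and 78.6% of the 14. The named genes in both sets were Fgl2, Slc7a11, Hyi, Ostf1, Nkd1, Rnf130, Smim14 and Pon2 above control, and Qrich2 and Fbxo41 below it. Btg3, an antiproliferative gene, met the condition on the 11 arrays only, with a pooled difference of 0.0721 there and 0.0499 on all arrays, where the scores as deposited gave -0.0197. A single gene, Fgl2, kept a p under 0.01 in every compound. No probe set had every high-dose array beyond every control array (0%). With the 11 arrays, 1 did (0.00322%). It has no gene symbol and read 0.557 to 0.634 in control against 0.649 to 0.767 on the 11 arrays, while P2500 replicates 03 and 04, at 0.608 and 0.629, fell within the control range.

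**Figure D2:**
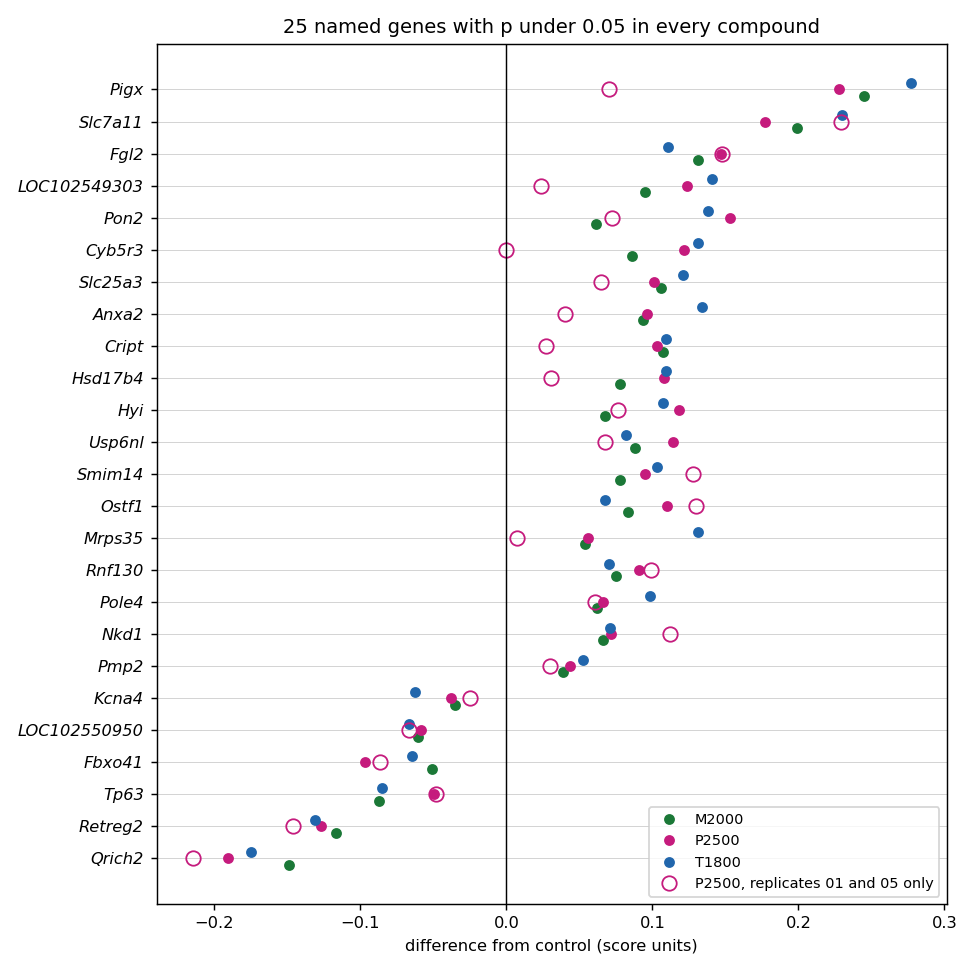
Difference from control in score units for the 25 named genes with an unadjusted p under 0.05 in the same direction in M2000, P2500 and T1800. Filled points are the 3 compounds, and open circles are P2500 from replicates 01 and 05 alone, which lie near 0 for Cyb5r3 (-0.000389) and Mrps35 (0.00701) and beside the filled point for Fgl2 (0.148 against 0.147).

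Fgl2 encodes fibrinogen-like protein 2, made as a secreted immune regulator by T cells and as a membrane prothrombinase by macrophages and endothelium. It read 0.515 ± 0.054 (SD, n = 6) in control, with a lowest value of 0.466, a median of 0.502 and a highest of 0.615. The M2000 arrays read 0.619, 0.643, 0.66, 0.702 and 0.606. The P2500 arrays read 0.599, 0.731, 0.615, 0.638 and 0.729 in replicates 01 to 05, and the T1800 arrays 0.624, 0.711, 0.598 and 0.573. All 14 high-dose arrays lay above the control mean, and 9 lay above the highest control array. The control and high-dose arrays overlap only through Control replicate 06, at 0.615, since the other 5 controls read at most 0.531 and the lowest high-dose array 0.573.

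The pooled difference of Fgl2 was 0.13 (SE 0.025; adjusted p = 0.35 in limma), with a 95% interval of 0.078 to 0.18. It was 0.131 in M2000, 0.147 in P2500 and 0.111 in T1800, and the largest of the 3 unadjusted limma p-values was 0.0024. On the 11 arrays it was 0.13 pooled and 0.148 in P2500. It was 0.14 within the earlier animal series and 0.15 without the arrays of large actin gap. The 500 ppm groups, which were not tested here, averaged 0.555 in M500, 0.61 in P500 and 0.628 in T500. The array holds 3 other probe sets for Fgl2, which gave pooled differences of 0.0427, 0.028 and 0.0262, none with an unadjusted p under 0.05. The pattern thus belongs to 1 of 4 probe sets of the gene, and whether they detect different transcripts was not tested.

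Slc7a11 encodes the light chain of the cystine and glutamate exchanger, which brings in cystine for glutathione synthesis, and is a textbook target of the oxidative stress factor NRF2. It read 0.252 ± 0.07 (SD, n = 6) in control, with a lowest value of 0.146, a median of 0.25 and a highest of 0.339. The M2000 arrays read 0.412, 0.231, 0.59, 0.448 and 0.571, the P2500 arrays 0.422, 0.449, 0.36, 0.371 and 0.539, and the T1800 arrays 0.488, 0.593, 0.526 and 0.317. The groups overlap through M2000 replicate 02 and T1800 replicate 05, and the other 12 high-dose arrays lay above every control. The pooled difference was 0.202 (SE 0.048; adjusted p = 0.99 in limma), with a 95% interval of 0.1 to 0.3. It was 0.199 in M2000, 0.177 in P2500 and 0.23 in T1800. On the 11 arrays it was 0.219, and within the earlier animal series 0.185. Averages at 500 ppm were 0.367, 0.346 and 0.312 in M500, P500 and T500, the first pair above the highest control array and the last below it.

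Hyi encodes hydroxypyruvate isomerase. It read -0.113 ± 0.052 (SD, n = 6) in control, with a lowest value of -0.182, a median of -0.0848 and a highest of -0.0758. The M2000 arrays read -0.064, -0.0101, -0.0141, -0.051 and -0.0916. The P2500 arrays read -0.0259, 0.0235, 0.0501, 0.0225 and -0.0479, and the T1800 arrays 0.0216, -0.0406, -0.00489 and -0.000399. Of the 14 high-dose arrays, 13 lay above every control, and M2000 replicate 05, one of the arrays of large actin gap, lay among them. Control replicates 02 and 06, also of large gap, read -0.178 and -0.182, and the other controls -0.0912 to -0.0758. The pooled difference was 0.0976 (SE 0.019; adjusted p = 0.35 in limma), with a 95% interval of 0.058 to 0.14, and 0.0838 without the liver-bearing arrays. It was 0.0673 in M2000, 0.118 in P2500 and 0.107 in T1800, and 0.109 within the earlier animal series. Without the arrays of large gap it was 0.0726. It was 0.0581 without the liver-bearing arrays as well, where P2500 is replicate 01 alone. The 500 ppm averages of Hyi were -0.0616, -0.0497 and -0.0242. All arrays read under bioB for Hyi and Slc7a11, and 1 array read above it for Fgl2.

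**Figure D3:**
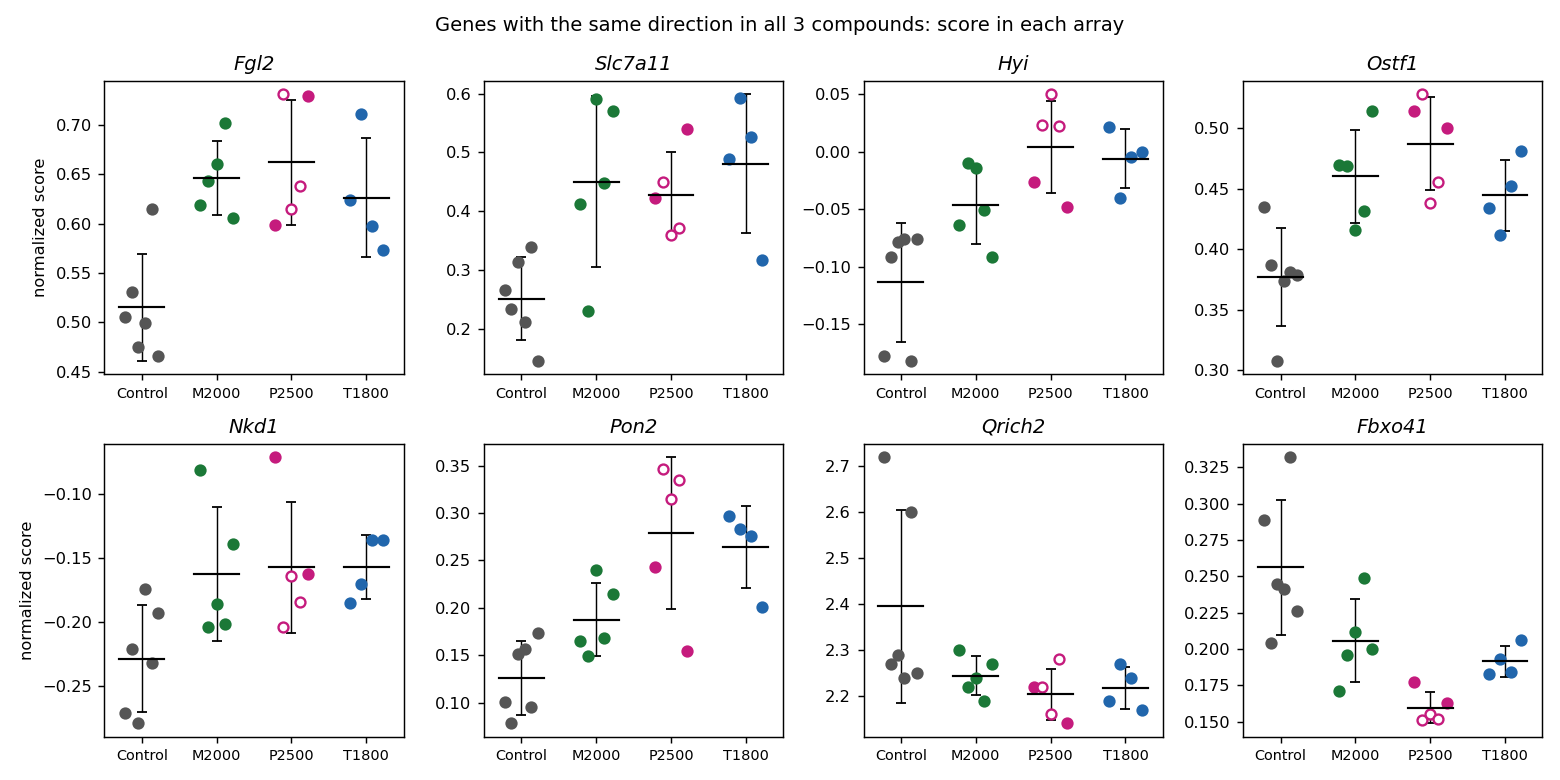
Normalized score of 8 genes in each control and high-dose array. Points are arrays, bars the group mean and SD, and open points are P2500 replicates 02 to 04. Control and high-dose arrays overlap by few arrays for Fgl2, Slc7a11, Hyi, Ostf1 and Pon2, while the control mean of Qrich2 is raised by 2 arrays at 2.72 and 2.6.

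Of the genes that lead the shared list, the start regions of Slc7a11 and Hyi are shown and were searched for a common element. The sequences used here held no start region for Fgl2, the first gene of that list. The sequences are RefSeq's in the GRCr8 build of the rat genome, each the 250 bases before the annotated start in the direction of the gene, with motif matches in capitals. The 4 motifs, searched on both strands, were the antioxidant response element core TGACNNNGC, the TATA box TATAAA, the CCAAT box CCAAT and the Sp1 GC box GGGCGG. The Slc7a11 window lies on the minus strand at chr2:136668265-136668514 and holds no match to any of them. The Hyi window lies on the plus strand at chr5:137179726-137179975 and holds 2 GC boxes, 1 on each strand, and none of the others. No motif was shared by both windows.
Slc7a11: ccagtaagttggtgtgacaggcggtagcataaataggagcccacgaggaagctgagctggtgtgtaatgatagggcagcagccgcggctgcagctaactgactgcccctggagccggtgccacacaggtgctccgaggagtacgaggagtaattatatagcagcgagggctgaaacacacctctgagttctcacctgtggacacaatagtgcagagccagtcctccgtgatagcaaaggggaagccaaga
Hyi: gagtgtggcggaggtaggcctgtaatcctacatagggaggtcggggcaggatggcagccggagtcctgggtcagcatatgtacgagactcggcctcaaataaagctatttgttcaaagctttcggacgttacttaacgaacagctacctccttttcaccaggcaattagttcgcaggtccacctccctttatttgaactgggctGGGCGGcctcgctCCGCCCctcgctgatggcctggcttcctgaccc
Among all 27457 promoter windows of the same length, the GC box occurred in 32.4%, the CCAAT box in 34.3%, the TATA box in 13.1% and the antioxidant element core in 10.2%. A GC box is therefore common, and the absence of the other letters from these windows says nothing about binding elsewhere.

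The next genes of the shared list had small shifts of weak signals. Ostf1, an osteoclast-stimulating adaptor protein gene, read 0.308 to 0.435 in control, and 10 of the 14 high-dose arrays lay above that range. Its pooled difference was 0.087 (SE 0.019), and 0.0936 without the liver-bearing arrays. Nkd1, an inhibitor of Wnt signalling, read -0.279 to -0.174 in control, and 8 high-dose arrays lay above that. Its pooled difference was 0.0696 (SE 0.021), and 0.0832 on the 11 arrays, but its other 2 probe sets gave -0.00311 and -0.013. Rnf130, a ubiquitin ligase gene, read 0.379 to 0.454 in control, with 12 high-dose arrays above and a pooled difference of 0.0788 (SE 0.023), or 0.0815 on the 11 arrays.

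Pon2, the paraoxonase that lies inside cells and acts against lipid oxidation, read 0.126 ± 0.039 (SD, n = 6) in control, between 0.0779 and 0.173. It read 0.149 to 0.24 in M2000, 0.154 to 0.346 in P2500 and 0.201 to 0.297 in T1800. The 4 T1800 arrays all lay above control, while 3 of the M2000 arrays and P2500 replicate 05 lay within the control range. The liver-bearing arrays were its highest in P2500, at 0.346, 0.315 and 0.335. The pooled difference was 0.117 (SE 0.024; adjusted p = 0.35 in limma) and 0.0907 without them. Pon2 was the one gene that reached the threshold when a single array was left out, with an adjusted p of 0.033 without P2500 replicate 05. The liver's part in that value was not tested.

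Of the 20 higher probe sets, 8 kept less than 50% of their P2500 difference without the liver-bearing arrays. The same share over all probe sets was not counted, and the 20 were chosen for their p with those arrays included. The P2500 arrays left are replicates 01 and 05, and replicate 05 has an actin gap of 1.47. The part of liver transcripts and of replicate 05 in these falls was not tested. Pigx, a gene of glycosylphosphatidylinositol anchor synthesis, had the largest pooled difference of the shared list, 0.25. It was 0.245 in M2000, 0.228 in P2500 and 0.277 in T1800, and 0.0701 in P2500 without the liver-bearing arrays. Others are Anxa2, a calcium-dependent membrane-binding protein gene (0.0961 to 0.04), Cript, a synaptic scaffold-binding protein gene (0.103 to 0.027), Cyb5r3, the NADH-cytochrome b5 reductase gene (0.122 to -0.000389), and Hsd17b4, an enzyme of peroxisomal fatty acid oxidation (0.108 to 0.0304). Slc25a3, the mitochondrial phosphate carrier gene at 1.91 ± 0.11 (SD, n = 6) in control, went from 0.101 to 0.0647. It read 1.84 and 1.72 on Control replicates 02 and 06, against 1.96 to 1.99 on the other 4 controls, and its pooled difference was 0.109 with all arrays and 0.0536 without those of large actin gap. On the scores as deposited its sign turned, to -0.0212.

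Several lower genes had their highest control values on the arrays of large actin gap. Qrich2, a sperm flagellum gene, read 2.72 and 2.6 on Control replicates 02 and 06. The other 4 controls read 2.24 to 2.29, inside the high-dose range of 2.14 to 2.3. Its pooled difference was -0.171 (SE 0.053) with all arrays and -0.0357 without the arrays of large actin gap. Retreg2, a receptor gene of endoplasmic reticulum turnover, went likewise from -0.125 to -0.0483. Fbxo41, an F-box protein gene, read 0.289 and 0.332 on these 2 controls and 0.204 to 0.245 on the others. Its pooled difference was -0.0708 (SE 0.018), and -0.0434 without the arrays of large gap.

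For Fbxo41, all 5 P2500 arrays, at 0.151 to 0.177, lay below every control. Kcna4, a voltage-gated potassium channel gene, lay below every control on 13 of the 14 high-dose arrays. Its difference was small, -0.0453 (SE 0.012), and -0.0443 without the arrays of large gap, at a control level of -0.516 that was under bioB on all arrays. With the 11 arrays its P2500 p was no longer under 0.05. Tp63, the p53 relative that guards germ cells, gave -0.0742 (SE 0.019) on 1 probe set and -0.0411 on another, which had no unadjusted p under 0.05.

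Genes with a small pooled p but no shift in every compound included Gpx3, Man1a1 and Acsl1. Gpx3, the secreted glutathione peroxidase, differed by 0.146 (SE 0.039) over all arrays, with 0.0852 in M2000, 0.146 in P2500 and 0.207 in T1800. In P2500 it was 0.0198 without the liver-bearing arrays. Man1a1, a mannosidase of N-glycan processing, differed by 0.102 (SE 0.024) and by 0.0797 without them. Its other probe set gave 0.0238, with no unadjusted p under 0.05. S100b differed by 0.133 (SE 0.031), and 11 of 14 arrays lay above every control. Acsl1, which activates long-chain fatty acids, differed by -0.128 (SE 0.039), with -0.0723, -0.0719 and -0.241 in the 3 compounds. Its highest control values, 1.97 and 1.98, were on the arrays of large actin gap, and the difference was -0.0742 without the arrays of large gap and -0.0502 with array weights. The other probe sets of Acsl1 gave -0.207 (unadjusted p = 0.0059 in limma) and -0.0558 (no unadjusted p under 0.05). Both were lower than control in each of the 3 compounds. Iqca1 gave -0.202 (SE 0.056), and -0.158 on the 11 arrays. By the probe set given first, each of these genes had an adjusted p of 0.99 in limma.

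Gene lists were then read as counts and medians of pooled differences, with 1 probe set per gene. Over all 14217 genes the median difference was 0.00085, 51.1% lay above control and 4.42% had an unadjusted p under 0.05, or 2.64% without the liver-bearing arrays. No member of any of the 23 lists passed the adjusted threshold. In 13 lists at least 1 member had an unadjusted p under 0.05, and in 7 lists without the liver-bearing arrays.

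The Leydig cell list holds genes of steroid synthesis. Of 19 members measured, 16 lay above control, the median difference was 0.054 and 4 had an unadjusted p under 0.05, all higher. Without the liver-bearing arrays, 15 lay above control, the median was 0.036 and 3 had such a p. Per compound the median was 0.018 in M2000, 0.14 in P2500 and 0.044 in T1800, and no member reached p under 0.05 in all 3 compounds. In whole testis, more Leydig cells and more RNA per cell cannot be told apart.

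Cyp17a1 read 1.55 ± 0.19 (SD, n = 6) in control, from 1.35 to 1.89 with a median of 1.54. The T1800 arrays read 2, 2.13, 2.03 and 1.85. The P2500 arrays read 1.49, 2.33, 2.21, 2.27 and 1.93, the 3 liver-bearing ones highest, and the M2000 arrays 1.4, 1.22, 1.92, 1.71 and 1.94. Of the 14, 9 lay above every control, 2 of them from M2000. The pooled difference was 0.344 (SE 0.11; adjusted p = 0.99 in limma), with a 95% interval of 0.12 to 0.57, and 0.0848 in M2000, 0.493 in P2500 and 0.453 in T1800. With array weights, which favour P2500 replicates 03 and 04, its adjusted p was 0.027 in limma, while without the liver-bearing arrays the lowest adjusted p under any of 29 settings was 0.76. The difference was 0.232 without the liver-bearing arrays and 0.269 within the earlier animal series. It was 0.104 without both the liver-bearing arrays and those of large actin gap, where P2500 is replicate 01 alone, at 1.49.

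Other genes of steroid synthesis had smaller pooled differences. Hsd11b1, which interconverts active and inactive glucocorticoids, differed by 0.161 (SE 0.058), but Control replicate 02 read 0.939 against 1.19 to 1.45 on the others, and the difference was 0.0718 without the arrays of large gap. Tspo, a cholesterol-binding protein of the outer mitochondrial membrane, differed by 0.12 (SE 0.047), with the lowest control, 0.485, again on an array of large gap. Its difference was 0.0976 without the arrays of large gap and 0.123 on the 11 arrays. Cyb5a, cytochrome b5, which aids the lyase step of Cyp17a1, differed by 0.208 (SE 0.086) and by 0.08 without the liver-bearing arrays, which read 1.09, 1.14 and 1.1. Star, the cholesterol carrier into mitochondria, differed by 0.188 (95% interval -0.0097 to 0.39), or 0.0989 on the 11 arrays. Without the arrays of large gap the difference of Star was 0.2. It was 0.165 without the liver-bearing arrays as well, where P2500 is replicate 01 alone. Insl3, the Leydig cell peptide hormone, differed by 0.276 (95% interval -0.0063 to 0.56). Insl3 read 0.518 and 0.465 on the control arrays of large gap, 0.777 and 0.684 on the high-dose ones, and 1.11 to 1.61 on the other 16 arrays. Its difference was 0.235 on the 11 arrays and 0.0827 without the arrays of large gap.

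Cyp11a1 differed by 0.0168 (95% interval -0.16 to 0.2), Hsd3b1 by 0.0731 (-0.089 to 0.23) and Hsd17b3, the last step to testosterone, by 0.0217 (-0.017 to 0.061). The receptor of luteinizing hormone, Lhcgr, differed by 0.0377 (-0.056 to 0.13), and Por, the electron donor of microsomal P450 enzymes, by -0.00617 (-0.077 to 0.065). The signs of Cyp11a1, Por, Hsd3b1 and Lhcgr turned under some processing alternatives. Without the arrays of large gap the differences were 0.099 for Cyp11a1, 0.121 for Hsd3b1, 0.0122 for Hsd17b3, 0.0783 for Lhcgr and -0.044 for Por. These intervals do not show that the compounds left a gene unmoved: those of Cyp11a1, Hsd3b1 and Lhcgr include shifts as large as that of Fgl2.

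**Figure D4:**
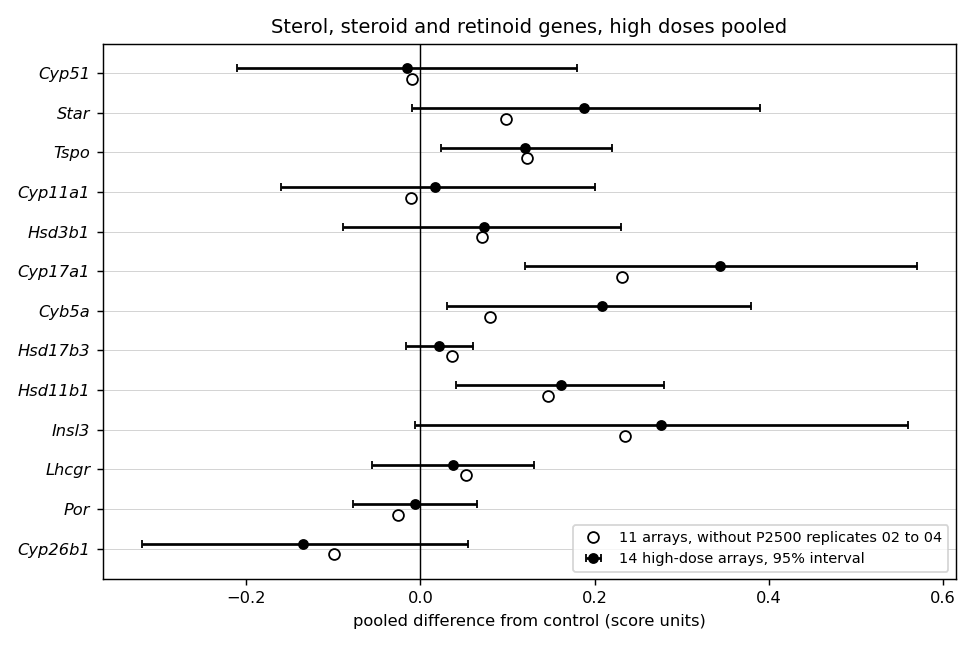
Pooled difference from control in score units for 13 genes of sterol, steroid and retinoid metabolism. Filled points and bars are the 14 high-dose arrays with the 95% interval of the limma fit, and open points are the 11 arrays without P2500 replicates 02 to 04. The intervals of Cyp17a1, Hsd11b1, Tspo and Cyb5a lie above 0, before any adjustment for the number of probe sets.

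Genes of sterol synthesis gave small differences. Cyp51, the mammalian form of the fungicides' target, read 1.08 to 1.55 in control with a median of 1.12, and 0.908 to 1.71 with a median of 1.15 on the high-dose arrays. Its highest control values, 1.42 and 1.55, and the high-dose values of 1.62 and 1.71 were all on the arrays of large actin gap. The pooled difference was -0.0152 (SE 0.095), with a 95% interval of -0.21 to 0.18, and its sign turned with the processing, to 0.047 without the arrays of large gap. Of 23 genes of cholesterol synthesis and uptake, 18 lay above control with a median difference of 0.026. The isomerase Ebp (0.0574, SE 0.026) alone had an unadjusted p under 0.05, and none did without the liver-bearing arrays. Of 18 retinoic acid genes, 10 lay above control, the median was 0.0011 and none had an unadjusted p under 0.05. The retinoic acid hydroxylase Cyp26b1 differed by -0.135 (SE 0.092), and by -0.0174 without the arrays of large gap.

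Genes of xenobiotic metabolism had smaller differences without the liver-bearing arrays. Of 28 measured, 21 lay above control, the median difference was 0.064 and 7 had an unadjusted p under 0.05, all higher: Sult1a1, Cyp1b1, Cyp2j4, Ces1d, Cyp2e1, Ugt2b1 and Slco1a1. Over the 11 arrays 19 lay above control, the median was 0.0081 and none had such a p. Cyp2e1, an ethanol-oxidizing P450 of liver, went from 0.229 to 0.0262, and Ugt2b1, a glucuronosyl transferase, from 0.183 to 0.018. Ces1d, a carboxylesterase, was 0.168 with all arrays and 0.165 without them, at a control level of 1.93, but 0.00326 on the scores as deposited. The hepatocyte list had a median of 0.25 and 20 of 20 members above control, against -0.034 and 5 of 20 without the 3 arrays.

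**Figure D5:**
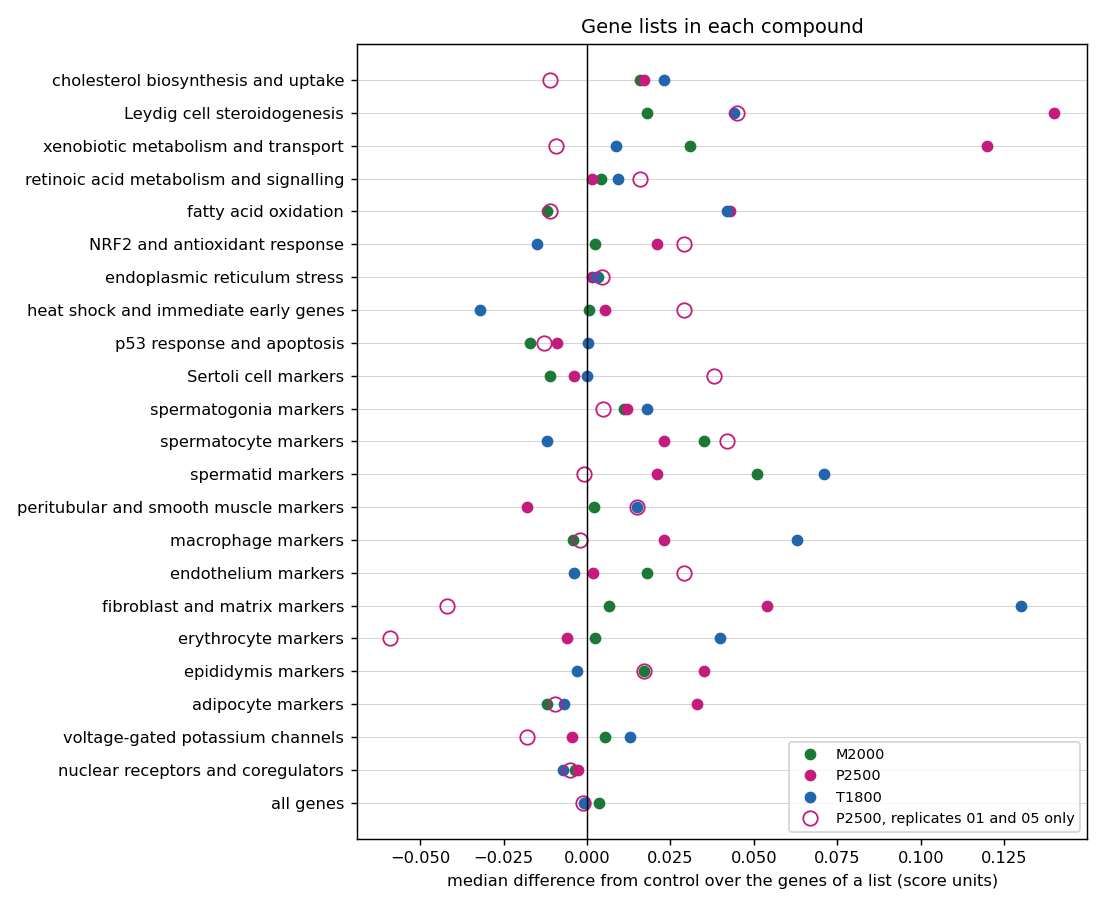
Median difference from control in score units over the genes of each list, for M2000, P2500 and T1800 (filled) and for P2500 from replicates 01 and 05 alone (open). The hepatocyte list is left out for its scale. The Leydig and xenobiotic lists have their largest medians in P2500, 0.14 and 0.12, which are 0.045 and -0.0094 from the 2 arrays alone.

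Oxidative stress genes were read beside Slc7a11. Of 16 genes of the NRF2 and antioxidant list, 9 lay above control, the median was 0.022 and 4 had an unadjusted p under 0.05, all higher. They were Gpx1 (0.216, SE 0.071), Nqo1 (0.0631, SE 0.025), Sod1 (0.0874, SE 0.037) and Txn1 (0.187, SE 0.091), of glutathione peroxidase, quinone reduction, superoxide dismutation and thioredoxin. On the 11 arrays Gpx1 alone had such a p, at a difference of 0.116. Sod1 was at 0.0124 without the arrays of large gap, and its sign turned on the scores as deposited. Heat shock and immediate early genes had none of 14, p53 and apoptosis genes none of 13 and nuclear receptors and coregulators none of 17 at an unadjusted p under 0.05. The endoplasmic reticulum stress list had 1 of 15, Xbp1 (0.0852), and none without the liver-bearing arrays.

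Of 23 fatty acid oxidation genes, 3 were higher and 1 lower at an unadjusted p under 0.05. Acadl, a long-chain acyl-CoA dehydrogenase gene, differed by 0.174 (SE 0.052), Acaa2, a thiolase, by 0.149 (SE 0.054), and Hadh by 0.0922 (SE 0.044), while Acsl1 was the lower one. Acadl, Acaa2 and Acsl1 kept such a p without the liver-bearing arrays, at 0.141, 0.131 and -0.123. Acadl read 0.696 and 0.682 on the control arrays of large actin gap and 0.952 to 1.07 on the other controls, and its difference was 0.081 without the arrays of large gap. Acaa2 differed by 0.201 without the arrays of large gap and by 0.0559 on the scores as deposited. The other probe sets of Acaa2 and Hadh gave -0.0255 and 0.00205, neither with an unadjusted p under 0.05. Of 18 voltage-gated potassium channel genes, Kcnd2 (0.202, SE 0.068) and Kcnh1 (0.0379, SE 0.016) were higher and Kcna4 lower, with and without those arrays. Kcnd2, which carries a fast transient potassium current, differed by 0.135 in M2000, 0.0968 in P2500 and 0.375 in T1800, and by 0.205 pooled over the 11 arrays. It read 0.0719 and 0.0862 on the control arrays of large gap and 0.2 to 0.417 on the other controls. Without the arrays of large gap the difference was 0.153. Its other probe set gave 0.0329, with no unadjusted p under 0.05.

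Markers of other cells of the testis included connective tissue genes. Of 16 fibroblast and matrix genes, 13 lay above control with a median difference of 0.07, and Dcn (0.355, SE 0.12), Col3a1 (0.292, SE 0.14) and, lower, Fbln1 (-0.0889, SE 0.026) had an unadjusted p under 0.05. On the 11 arrays Dcn, at 0.216, and Col3a1, at 0.184, had no such p, and Fbln1, at -0.068, had. The other probe set of Fbln1 gave 0.00903 with all arrays, with no such p. The median of the list was 0.0066 in M2000, 0.054 in P2500 and 0.13 in T1800, and -0.042 in P2500 from 2 arrays. Of 20 macrophage genes, 17 lay above control, with a median of 0.033 and 3 at such a p (C1qa, Cd14 and Lyz2), none without the liver-bearing arrays. Lyz2 went from 0.115 to 0.0557 without the arrays of large gap. Of 19 spermatid genes, Smcp (0.113) and Spata19 (0.195) had such a p with all arrays and not without the liver-bearing arrays, and both signs turned on the scores as deposited. Spata19 read 2.77 and 3.17 on the control arrays of large actin gap and 3.61 to 3.73 on the other controls. Without the arrays of large gap the differences were 0.00603 for Spata19 and -0.0122 for Smcp. Peritubular cells had 1 of 12 (Tagln, 0.0545) and adipocytes 1 of 9 (Cfd, 0.0866), both higher in both sets of arrays.

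Sertoli cells (14 genes), spermatogonia (7), spermatocytes (9), endothelium (10), erythrocytes (5) and epididymis (8) had no member at an unadjusted p under 0.05 in either set. By the probe set that stands for each list gene, the shared list of the 3 compounds held 1 member of all these lists, Kcna4. This depends on the choice of members. The shared probe sets of Slc7a11 and Hsd17b4 were counted in neither the NRF2 nor the fatty acid oxidation list. The part of cell mixture in these list values was not tested.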

How the data were processed

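RNA of rat testis was hybridised to Affymetrix Rat Genome 230 2.0 arrays, 1 per animal. Per probe set the authors deposited 1 score, which behaves as a logarithm, with array medians from -0.00914 to 0.0558. The sources used here do not give the summary or normalization behind it. The 3 arrays without values (Control 01, M500 03, T1800 01) were not analysed here. Groups and replicate numbers came from the labels.

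Arrays were quantile normalized and fitted with limma 3.58.1 in R 4.3.3 (lmFit, eBayes, 1 mean per group over 31 arrays). The pooled contrast is the mean of the 3 high-dose group means minus control. Benjamini-Hochberg adjustment ran over 31042 probe sets, after 57 control probe sets were left out, with 0.05 as the threshold. The script was tested on simulated data. Of the probe sets, 20826 had 1 gene symbol, 436 several and 9780 none. Those with several were left unnamed. On each array 6.99% to 19.7% of probe sets read above the mean of the bioB probe sets. The number of arrays limits the precision.

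Genes were named by rule: up to 10 per direction by pooled p and 8 by the largest compound p, with and without P2500 02 to 04, up to 4 members of each list, and fixed steroid and marker genes. The other genes of the shared list, Arhgef28 and the further list members named were added after their values were seen. A list gene stands for its probe set of highest mean. Members and lists were chosen with earlier results of these data known. Alternatives tried were the scores as deposited, array weights, only the groups compared, a low-signal filter, 1 probe set per gene, trended robust eBayes, the actin gap as covariate or as exclusion, replicate and animal series blocks, the earlier series alone, the mean over arrays and leaving out each array.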

Additional observations from a re-analysis of the deposited data

Results flagged for a closer look

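In 312 sets of values of a named gene or array measure within 1 group, 28 (8.97%) had 1 array far from the rest, where chance flags about 1 set in 20. Of these, 4 were in Control, 11 in M2000, 6 in P2500 and 7 in T1800. Their causes were not tested.

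M2000 replicate 05 stood apart with an actin gap of 1.47 and scores of 1.62 for Cyp51, 0.568 for Gpx1, 0.682 for Hadh, 0.594 for Rnf130, 3.3 for Spata19, 0.754 for Zfp628 and 1.7 for Zmynd15. M2000 replicate 01 stood apart for Kcnd2 (0.595), Pmvk (0.54) and Tp63 (-0.464). P2500 replicate 05 was the low one for Star (0.327), Acadl (0.789), Lyz2 (0.732) and C1qa (0.0126). P2500 replicate 01 was low for Dbndd1 (-0.122) and replicate 04 high for Fbln2 (0.0109).

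T1800 replicate 05 stood apart for Star (0.58), C1qa (0.194), Lyz2 (1), Nqo1 (0.155), Tp63 (-0.474) and Smcp (4.31, against 4.3 on the other 3 arrays), and T1800 replicate 03 for Cyp26b1 (1.19, against 1.15). Arrays were flagged by their distance as a share of the group's range, so a step as small as that of Smcp counts. In control, replicate 06 was low for Tspo (0.485), Txn1 (1.01) and C1qa (-0.0192), and replicate 02 was high for Acaa2 (1.37). Control replicate 06 and replicates 05 of M2000 and P2500 are among the arrays of large actin gap.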

How the results depend on the processing

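The pooled count of 0 stayed at 0 in every alternative run but array weights (294 probe sets, and 0 without the liver-bearing arrays) and leaving out 1 array (0 to 1). Array weights gave Control replicates 02 and 06 weights of 0.127 and 0.163 and P2500 replicates 03 and 04 weights of 2.51 and 2.75. The cause of the moves below was not tested.

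The shared count of 35 (14 without the liver-bearing arrays) became 19 (4) on scores as deposited, 254 with array weights (12), 17 (6) with the low-signal filter, 21 with 1 probe set per gene, 92 (54) with the actin gap as covariate, 60 (33) without arrays of gap above 1.4, 120 (42) within the earlier series, and 3 (1) at a p under 0.01. With every array beyond every control it was 0 (1). Within the earlier series T1800 is 1 array, and the 33 rests on 1 P2500 array, so these lone arrays are assumed to vary like the other groups. Leaving out 1 array gave 23 to 126 (10 to 35), with 126 without Control replicate 03, 69, 78, 57 and 80 without Control replicates 04 to 07. Of the 35, 9 were kept on scores as deposited, 9 without arrays of large gap and 29 without Control replicate 03.

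M2000 calls were 8 with array weights and 0 to 0 without single arrays. P2500 calls were 882 with array weights, 1 with the filter, 2 with trend and robust, 50 with the gap covariate, 308 without large gaps and 0 to 283 without single arrays (268 without replicate 01, 283 without 05). T1800 calls of 2 became 0 on scores as deposited, with only the groups compared, with the gap covariate, without large gaps and within the earlier series, 264 with array weights and 0 to 5 without single arrays.

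With the replicate number as a block the shared count was 221 (78), and P2500 and T1800 had 1 call each. Numbers did not pair the samples: the correlation of deviations had a median of 0.0388 over 25 same-number pairs and 0.0495 over 124 others.

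Fgl2 kept a largest p under 0.05 in 30 of 31 settings (0.082 on scores as deposited), Slc7a11 in 30 of 31 (0.069 within the earlier series) and Hyi in 30 of 30, and in 26 of 28, 24 of 28 and 23 of 27 without the liver-bearing arrays. The 0.069 rests on 1 T1800 array; without the liver-bearing arrays, settings that also leave out P2500 replicate 01 or 05 leave 1 P2500 array. Fgl2, Slc7a11 and Hyi were picked for a p under 0.01 in every compound on these same arrays. Their counts of settings are therefore no independent support. For arrays, depth is signal over background, and most genes named here read under bioB.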
